A study of Homo sapiens with 12 samples.

Results

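The genes described here are 44 components of the DNA replication machinery, chosen by symbol from a list of known replication factors. The rule holds no measured value, but earlier results of these data were known when members, lists and comparisons were chosen. All 44 were found among the 60669 Ensembl identifiers of the gene count tables, and all 44 passed the filter on low counts that left 16695 genes for testing. They fall by role into origin licensing (11 genes), helicase activation (6), the sliding clamp and its loader (6), the replicative polymerases and primase (9), Okazaki fragment joining (2), nucleotide supply (5) and chromatin assembly with fork stability (5).

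The study sequenced RNA of wild-type PANC-1 cells, an established human line from a ductal carcinoma of the pancreas, in 12 libraries that form 6 groups of 2. All cells were reverse transfected with an siRNA for 72 h, and stimulated cells then received recombinant TNF-α, an inflammatory cytokine, for 30 min or 4 h at 100 ng/mL. The labels give the replicates as biological, and PANC-1 is the only line used. Groups are given here by the words in the submitters' file names, Scr1 or SIK3 for the siRNA and CLM, 30min or 4h for the time, where CLM was read as no TNF. The sample titles use another scheme, siCtrl1 or siAS1, unstimulated (Unst.), TNF 30 min or TNF 4 h, and the transfection label of the same samples calls the target SIK3, a salt-inducible kinase. Titles and file names put the same libraries together in pairs, but give different conditions to 8 of the 12 libraries. Scr1 30min is titled siAS1 Unst., Scr1 4h is titled siCtrl1 TNF 30 min, SIK3 CLM is titled siAS1 TNF 30 min and SIK3 30min is titled siCtrl1 TNF 4 h, while Scr1 CLM (siCtrl1 Unst.) and SIK3 4h (siAS1 TNF 4 h) carry matching names. Each library is therefore called by its file-name words, as a name and not as a verified treatment.

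In the libraries as a whole, gene counts ran from 13535825 to 22699756, and 4.94 to 45.3% of the reads were multimapping. The SIK3 transcript (ENSG00000160584) lay at 34.3 to 68.7 CPM (counts scaled to the library total, here TMM-scaled) in the 6 Scr1-named libraries and at 16.3 to 24.0 CPM in the 6 SIK3-named ones, a change of -1.33 ± 0.22 on the log2 scale (adjusted p = 0.00052). Its ranges are apart under the file-name words and overlap under the titles. All 5 epithelial and mesenchymal markers of PANC-1 were detected, the keratins KRT8 and KRT18 and vimentin (VIM) among them, and CDKN2A, a gene deleted in this line, had no read. Of the 5, 3 were called lower in the SIK3-named libraries, KRT7 by 0.53, KRT19 by 0.37 and VIM by 1.13 on the log2 scale, and VIM had a mean of 3569 CPM in Scr1-named and 1671 CPM in SIK3-named libraries. The part of this in the results for the replication genes was not tested. Of 13 markers of acinar, endocrine, immune, endothelial and stromal cells, PRSS1, CPA1, CELA3A, CTRB1 and INS were at 0 in every library. The summed level of the 13 was 1.06 to 2.55 CPM in Scr1-named and 0.664 to 1.38 CPM in SIK3-named libraries.

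A chromosome is copied once per cell cycle in a fixed order of steps. In G1 phase the origin recognition complex, CDC6 and CDT1 load the MCM2-7 helicase at origins, and at the start of S phase CDC45 and the GINS complex join MCM2-7 to form the active helicase. The primase and polymerase α begin each strand, polymerases ε and δ extend it on the PCNA clamp, and ribonucleotide reductase and thymidylate synthase supply the deoxynucleotides. Many of these genes are transcribed in late G1 and S phase under the E2F family of transcription factors, so their mRNA is abundant in proliferating tumour cells.

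Because many of these genes are transcribed under the E2F family, the promoters of some members are shown first. They belong to the member with the largest change in 4 of the groups, MCM2, GINS1, POLE2 and RRM2, and to POLD2, the member with the smallest change. Each runs from 150 bases before the RefSeq transcription start to the 30 bases that begin with it, 5′ to 3′ on the gene's strand, in GRCh38.p14. The intervals are chr3:127598261-127598440 (plus strand) for MCM2, chr20:25407523-25407702 (plus) for GINS1, chr14:49688185-49688364 (minus) for POLE2, chr2:10122589-10122768 (plus) for RRM2 and chr7:44123519-44123698 (minus) for POLD2. Capitals mark a match to 1 of 4 E2F forms, TTTCCCGC, TTTGGCGC, TTTCGCGC or TTTGCCGC, on either strand.
MCM2: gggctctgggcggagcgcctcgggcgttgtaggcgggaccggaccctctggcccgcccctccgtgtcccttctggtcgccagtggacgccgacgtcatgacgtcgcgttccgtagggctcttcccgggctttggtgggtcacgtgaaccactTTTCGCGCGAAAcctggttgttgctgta
GINS1: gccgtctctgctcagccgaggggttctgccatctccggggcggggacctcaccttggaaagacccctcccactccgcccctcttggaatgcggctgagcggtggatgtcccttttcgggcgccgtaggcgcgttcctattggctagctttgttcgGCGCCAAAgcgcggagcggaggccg
POLE2: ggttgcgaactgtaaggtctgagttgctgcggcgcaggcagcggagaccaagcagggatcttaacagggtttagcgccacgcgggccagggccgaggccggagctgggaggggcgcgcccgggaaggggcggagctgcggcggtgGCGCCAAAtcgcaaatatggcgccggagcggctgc
RRM2: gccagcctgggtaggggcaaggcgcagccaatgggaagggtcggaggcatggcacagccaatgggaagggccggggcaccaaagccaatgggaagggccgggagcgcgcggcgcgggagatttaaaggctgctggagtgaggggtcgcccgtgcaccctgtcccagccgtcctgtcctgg
POLD2: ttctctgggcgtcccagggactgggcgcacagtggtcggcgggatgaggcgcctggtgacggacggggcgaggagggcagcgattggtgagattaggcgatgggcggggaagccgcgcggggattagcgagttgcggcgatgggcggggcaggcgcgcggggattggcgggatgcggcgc

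MCM2 holds matches to TTTCGCGC on both strands, which overlap within the capitals, and GINS1 and POLE2 each hold TTTGGCGC on the opposite strand. RRM2 and POLD2 hold none of the 4 forms in this window. Over the 300 bases from 250 before the start to 50 after it, 40 of the 44 members had an entry in the promoter table. An E2F form was present in 18 of these 40 (45.0%), against 3.33% of all 27303 promoters of that length and 5.35% of the 10750 promoters of tested genes. It was present in 6 of 9 licensing promoters, 3 of 5 helicase activation promoters, 4 of 8 polymerase promoters, 2 of 6 for the clamp and its loader, 1 of 2 for Okazaki joining, 1 of 5 for nucleotide supply and 1 of 5 for chromatin assembly and fork stability. The median log2 change between SIK3-named and Scr1-named libraries was -1.57 for the 18 members with a form and -1.4 for the 22 without. The pentamer CCAAT, searched on both strands, was in 23 of 40 members (57.5%), 35.7% of all promoters and 36.4% of those of tested genes, and RRM2 carried it 3 times. The CHR element TTTGAA, a mark of genes expressed in G2 and M phase, was in 1 of 40 members (2.5%, RRM1), in 15.4% of all promoters and in 9.58% of the promoters of tested genes. Under the same search it was in 11 of 16 promoters of mitosis genes (68.8%). These matches describe letters in a window and were not tested for binding.

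The replication genes were lower together in the SIK3-named libraries. Averaged over the 3 time words, 42 of 44 were called lower than in the Scr1-named libraries by edgeR's quasi-likelihood test at a Benjamini-Hochberg adjusted p under 0.05, where 29% of all genes tested were called lower. A single member, POLD3, was called higher, as were 30.2% of all genes, and POLD2 was not called. The median log2 fold change (SIK3-named minus Scr1-named, from the fit) was -1.44 for the 44 members and 0.02 for all genes. For 42 members all 6 SIK3-named libraries lay below all 6 Scr1-named ones, a pattern held by 17.6% of all genes, and for POLD3 all 6 lay above, as for 16.8% of all genes. Of the members, 36 were at least 2-fold lower and 5 at least 4-fold lower, namely MCM2, CDC6, POLE2, GINS1 and RRM2. In RNA from whole cultures, fewer cells in S phase and less of each RNA per cell cannot be told apart.

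The members together made up 2887 to 3209 CPM in the Scr1-named libraries. They made up 1064 and 991 CPM in SIK3 CLM, 1087 and 1055 in SIK3 30min, and 1372 and 1348 in SIK3 4h. No Scr1-named library came near the SIK3-named range, and within the SIK3-named libraries the 4h pair was the highest.

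**Figure D1:**
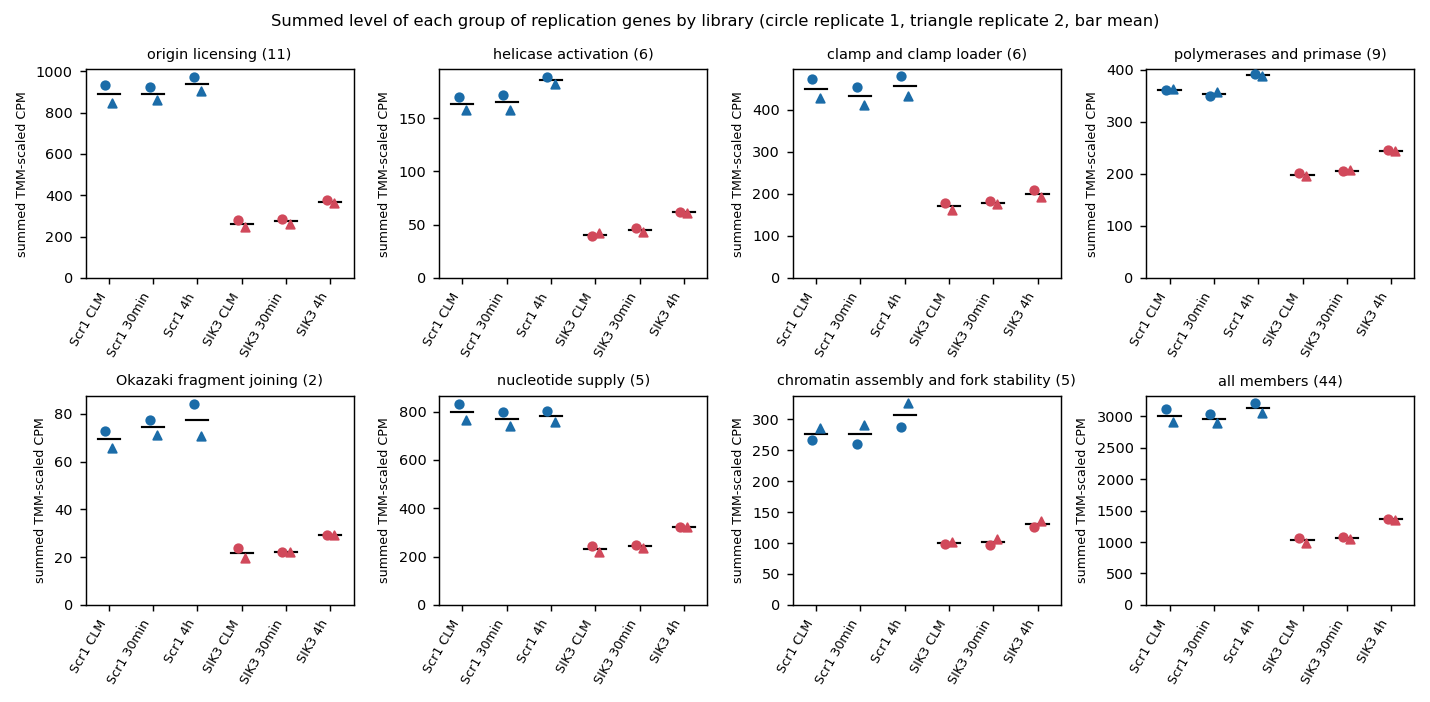
Summed TMM-scaled CPM (y axis, from 0) of each group of replication genes in each library (x axis, file-name words), with replicate 1 as a circle, replicate 2 as a triangle and the mean of 2 as a bar, Scr1-named in blue and SIK3-named in red. In every panel all 6 SIK3-named libraries lie below all 6 Scr1-named ones, and the SIK3 4h pair lies above the other SIK3-named libraries; for all 44 members the ranges are 991 to 1372 against 2887 to 3209 CPM.

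Origin licensing fell as a whole, with 11 of 11 members called lower and a median log2 change of -1.65. MCM2, a subunit of the helicase hexamer (ENSG00000073111, chromosome 3, 127598223 to 127622436, plus strand, GRCh38), was at 102 and 85.5 CPM in Scr1 CLM, 93.5 and 84.1 in Scr1 30min and 108 and 82.8 in Scr1 4h. It was at 18.7 and 15.4 CPM in SIK3 CLM, 20 and 17.5 in SIK3 30min and 25.2 and 24.9 in SIK3 4h. The 2 sets were far apart, and the fitted change of -2.21 ± 0.09 (SE, adjusted p = 6.22e-08) was the largest of all members. An antisense gene that was not among the identifiers counted overlaps a stretch of the MCM2 exon sequence. MCM6, another subunit, ran from 47.6 to 60.2 CPM in Scr1-named and from 24.4 to 30.2 CPM in SIK3-named libraries, the smallest licensing change at -1.0 ± 0.07. The 6 hexamer subunits thus fell by unequal amounts, between these bounds, with MCM3 at -1.26, MCM5 at -1.41, MCM7 at -1.65 and MCM4 at -1.66.

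The hexamer assembles from equal numbers of each subunit, but the transcript levels per kilobase were not equal. The length was the union of all exons annotated for a gene, 7338 bases for MCM5 and 4902 for MCM2. Where that union is longer than the transcripts present, the level per kilobase comes out too low, so the order of subunits is uncertain. Per kilobase of exon, the mean level in Scr1-named libraries was 58.1 CPM for MCM7, 39.8 for MCM3, 22 for MCM4, 18.9 for MCM2, 13.1 for MCM6 and 8.30 for MCM5. In SIK3-named libraries MCM7 (18.9) and MCM3 (16.8) were still the highest, MCM6 was at 6.56, MCM2 at 4.14 and MCM5 at 3.16 CPM per kilobase.

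The loaders fell with the helicase. CDC6, the ATPase that loads MCM2-7, had a low of 57.5 and a high of 73.6 CPM in Scr1-named libraries and a low of 11 and a high of 19.3 CPM in SIK3-named ones, a change of -2.17 ± 0.08 (adjusted p = 3.09e-08). CDT1, its partner, was rare, at 4.11 to 6.5 CPM against 1.43 to 3.31 CPM, and fell by 1.23 on the log2 scale with a wider SE of 0.14. Of the origin recognition complex, ORC1 changed by -1.57 and ORC6 by -1.89. Geminin (GMNN), which binds CDT1 and blocks repeated loading, was at 27.4 to 37.1 CPM in Scr1-named and 8.30 to 12.1 CPM in SIK3-named libraries, a change of -1.75, so the loaders and their inhibitor were lower together.

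Helicase activation showed the same direction in 6 of 6 members, with a median of -1.55. GINS1 (ENSG00000101003, chromosome 20, 25407727 to 25452628, plus strand), a subunit of the GINS tetramer that holds CDC45 on the helicase, was at 75.5 and 69.6 CPM in Scr1 CLM, 75.7 and 70.4 in Scr1 30min and 88.9 and 87.8 in Scr1 4h. Its level was 15.4 and 17.0 CPM in SIK3 CLM, 17.6 and 15.6 in SIK3 30min and 24.7 and 24.1 in SIK3 4h. Both sets were highest at 4h and did not overlap, and the change was -2.05 ± 0.06 (adjusted p = 8.69e-09). The partners GINS2, GINS3 and GINS4 fell less, by 1.10, 1.26 and 1.33 on the log2 scale. GINS1 was also the most abundant of the tetramer by length, at 19.2 CPM per kilobase in Scr1-named libraries against 2.06 for GINS2, 1.85 for GINS3 and 1.77 for GINS4, and at 4.69 against 0.982, 0.772 and 0.713 in SIK3-named ones. MCM10, which helps to activate the helicase, ran from 36.7 to 40.6 CPM and from 8.03 to 14.9 CPM, a change of -1.93 ± 0.07. CDC45 ran from 24.5 to 32.4 CPM and from 6.4 to 12.1 CPM, a change of -1.77 ± 0.10.

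The clamp and its loader were lower in 6 of 6 members, over a wider range of sizes. PCNA, the sliding clamp and the most abundant member by length (106 CPM per kilobase in Scr1-named and 37.0 in SIK3-named libraries), was at 165 and 140 CPM in Scr1 CLM, 162 and 140 in Scr1 30min and 175 and 150 in Scr1 4h. It was at 53.6 and 43.1 CPM in SIK3 CLM, 55.3 and 53.2 in SIK3 30min and 64.1 and 57.2 in SIK3 4h. In each Scr1-named pair replicate 1 was the higher, and the change of -1.52 ± 0.08 (adjusted p = 2.74e-07) was larger than that spread. Within the RFC loader, a pentamer that opens PCNA, RFC3 fell by 1.86, RFC5 by 1.71, RFC4 by 1.27, the large subunit RFC1 by 0.94 and RFC2 by 0.73 on the log2 scale. RFC2 was the closest to overlap, with a Scr1-named low of 35.2 CPM and a SIK3-named high of 31.8 CPM.

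The polymerases and primase were the least uniform group, with 7 of 9 members lower, 1 higher and 1 not called. For polymerase ε, the leading-strand enzyme, the catalytic subunit POLE ran from 91.1 to 112 CPM in Scr1-named and from 32.8 to 48.3 CPM in SIK3-named libraries, a change of -1.40 ± 0.07. Its non-catalytic subunit POLE2 (ENSG00000100479, chromosome 14, 49643555 to 49688422, minus strand) was at 15.1 and 13.1 CPM in Scr1 CLM, 15.7 and 13.2 in Scr1 30min and 11.6 and 13.4 in Scr1 4h. In SIK3-named libraries POLE2 was at 2.17 and 2.04 CPM in CLM, 3.11 and 2.89 in 30min and 4.78 and 3.97 in 4h. The lowest pair was SIK3 CLM, and the change was -2.17 ± 0.10 (adjusted p = 8.46e-08).

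Polymerase δ, the lagging-strand enzyme, did not share this size of change. Its accessory subunit POLD2 (ENSG00000106628, chromosome 7, 44114681 to 44124358, minus strand) was at 73.9 and 62.3 CPM in Scr1 CLM, 68.9 and 59.9 in Scr1 30min and 74.6 and 63.9 in Scr1 4h. It was at 62.1 and 59.4 CPM in SIK3 CLM, 60.4 and 60.8 in SIK3 30min and 68.8 and 67.3 in SIK3 4h. The sets overlapped, and the change of -0.09 ± 0.07 did not pass the test (adjusted p = 0.267). POLD3 (ENSG00000077514, chromosome 11, 74493851 to 74669117, plus strand), also an accessory subunit, was at 26.6 to 30.9 CPM (mean 29.6 ± 1.60, SD, n = 6) in Scr1-named and 35.0 to 39.3 CPM (36.5 ± 1.47) in SIK3-named libraries. Every SIK3-named library was above every Scr1-named one, a rise of 0.30 ± 0.05 (adjusted p = 0.000855). The catalytic subunit POLD1 ran from 13.4 to 15.8 CPM and from 8.98 to 13.1 CPM, without overlap but by a narrow margin, a fall of 0.35 on the log2 scale (adjusted p = 0.00305). POLD4, the remaining subunit and not among the 44 members, changed by -0.75 ± 0.19.

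Polymerase α and primase, which act as 1 complex to lay down primers, were also uneven. The catalytic subunit POLA1 changed by -0.38 ± 0.06, from 28.4 to 32.7 CPM in Scr1-named to 22 to 26.4 CPM in SIK3-named libraries. Its partner POLA2 changed by -1.81 ± 0.11, the small primase subunit PRIM1 by -1.82 ± 0.15 and the large primase subunit PRIM2 by -1.16 ± 0.08. The difference in size between subunits of a complex was not tested. Other annotated genes on the same strand overlap 35.1% of the POLA2 exon sequence and 14.9% of that of PRIM1, so reads there could have been assigned to either gene.

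**Figure D2:**
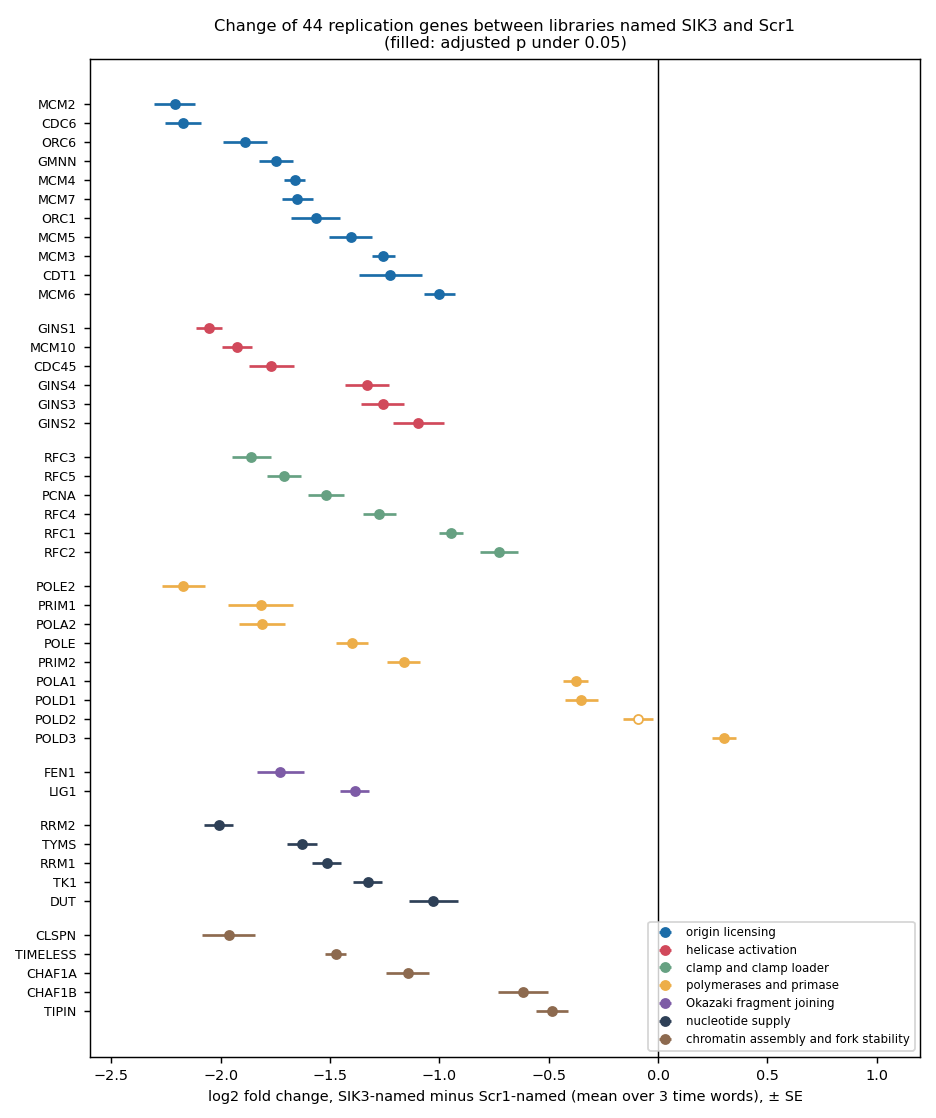
Log2 fold change of each of the 44 replication genes between SIK3-named and Scr1-named libraries, mean over 3 time words (x axis, ± SE from edgeR), with genes in rows by role and filled points for an adjusted p under 0.05. All points lie left of 0 except POLD3 at 0.30, and POLD2 at -0.09 is the open point; POLA1, POLD1 and TIPIN are the other members within 0.50 of 0.

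Okazaki fragments are trimmed by the flap endonuclease FEN1 and sealed by DNA ligase LIG1, and both were lower. FEN1 ran from 40.8 to 58.4 CPM in Scr1-named and from 11.3 to 18.7 CPM in SIK3-named libraries, a change of -1.73 ± 0.11. LIG1 ran from 21.9 to 25.7 CPM and from 7.90 to 11.2 CPM, a change of -1.39 ± 0.07.

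Nucleotide supply fell in 5 of 5 members, with a median of -1.52. Ribonucleotide reductase, which makes deoxynucleotides, has a large subunit RRM1 and a small subunit RRM2 whose level follows S phase. RRM2 (ENSG00000171848, chromosome 2, 10120698 to 10131419, plus strand) was at 264 and 268 CPM in Scr1 CLM, 255 and 254 in Scr1 30min and 242 and 247 in Scr1 4h. It was at 56.2 and 48.6 CPM in SIK3 CLM, 52.4 and 59.3 in SIK3 30min and 78.9 and 94.4 in SIK3 4h. The SIK3-named 4h pair stood above the other SIK3-named pairs, the Scr1-named 4h pair was the lowest of its set, and the overall change was -2.01 ± 0.07 (adjusted p = 1.59e-08). RRM1 ran from 298 to 343 CPM and from 98.1 to 140 CPM, a change of -1.52 ± 0.07. Thymidylate synthase (TYMS) changed by -1.63 ± 0.07, thymidine kinase (TK1) by -1.33 ± 0.07 and the dUTPase gene DUT by -1.03 ± 0.11. An annotated gene on the same strand overlaps 20.2% of the RRM2 exon sequence but was not among the identifiers counted. ENOSF1 overlaps 39.1% of the exon sequence of TYMS on the opposite strand. The strand setting of the counting is not given in the sources used here.

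Among chromatin assembly and fork factors, 5 of 5 were lower. Claspin (CLSPN), an adaptor of the replication checkpoint, ran from 94.0 to 153 CPM in Scr1-named and from 22 to 43.4 CPM in SIK3-named libraries, a change of -1.96 ± 0.12. TIMELESS and TIPIN form a dimer that stabilizes the fork, yet TIMELESS changed by -1.47 ± 0.05 and TIPIN by -0.48 ± 0.07. TIPIN ran from 31.5 to 42.9 CPM and from 23.3 to 31.3 CPM, so its sets met without overlapping, and a pseudogene with no count overlaps 21.0% of its exon sequence. The histone chaperone subunits CHAF1A and CHAF1B, which place new histones behind the fork, changed by -1.15 ± 0.10 and -0.62 ± 0.11.

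**Figure D3:**
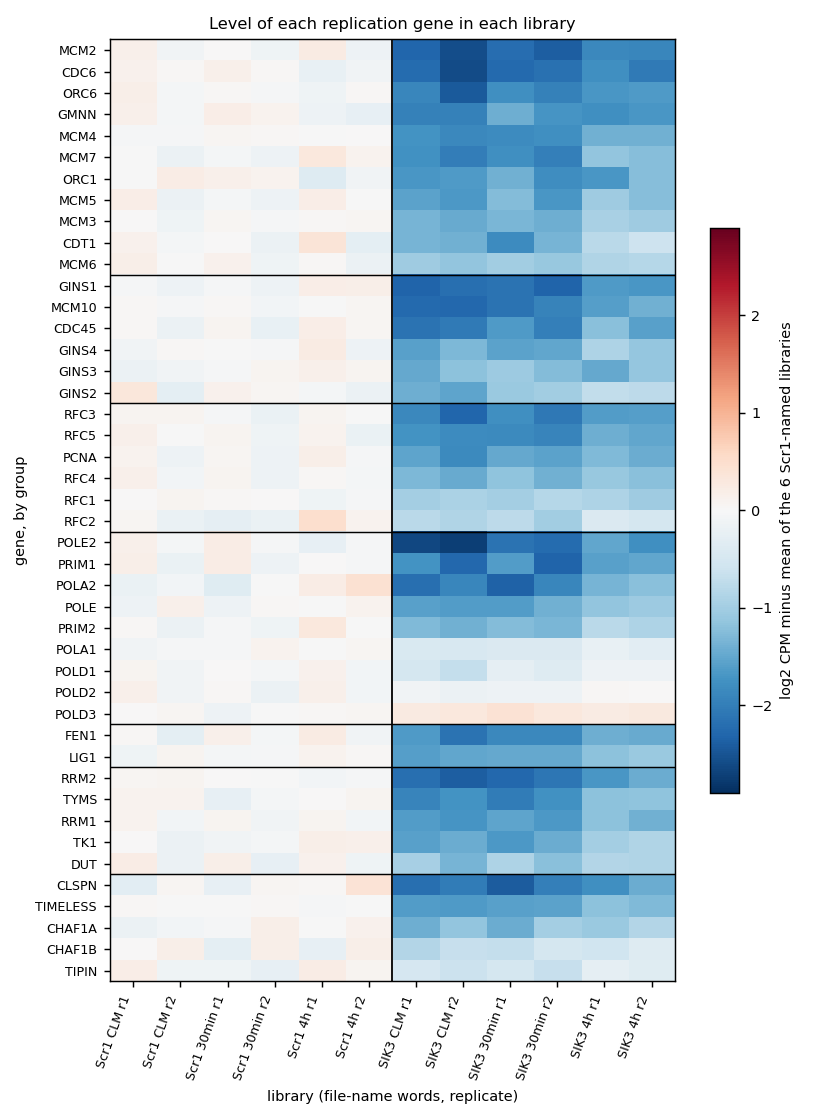
Log2 CPM of each of the 44 replication genes (rows, by role) in each of the 12 libraries (columns), relative to the gene's mean over the 6 Scr1-named libraries, blue lower and red higher. The 6 SIK3-named columns are blue for nearly every row, the rows of POLD2 (overlapping) and POLD3 (higher) are the exceptions, and the 2 SIK3 4h columns are paler than the other SIK3-named ones.

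The order of transcript levels by exon-union length was led in Scr1-named libraries by PCNA (106 CPM per kilobase), RRM1 (77.0), MCM7 (58.1), RRM2 (47.9) and MCM3 (39.8). It ended with GINS3 (1.85), GINS4 (1.77) and CDT1 (1.52), and it depends on the exons annotated for each gene. POLD2, at 18.2 CPM per kilobase in Scr1-named libraries, was at 17.1 in SIK3-named ones, above MCM3 (16.8) and RRM2 (12.2) there. GINS3 and GINS4 did not differ beyond their spread, at 9.44 ± 0.76 and 9.68 ± 0.94 CPM (SD, n = 6) in Scr1-named libraries.

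The fall was present at each time word. At CLM, 42 of 44 members were called lower (19.8% of all genes), with a median of -1.64, and POLD2 and POLD3 were not called. At 30min, 41 were called lower (19.6% of all genes) with a median of -1.5, POLD3 was called higher (18.2% of all genes) by 0.44 ± 0.09, and POLD1 and POLD2 were not called. At 4h, 40 were called lower (19.9% of all genes) with a median of -1.22, and POLD1, POLD2, POLD3 and CHAF1B were not called. With the replicate number as a block, POLD3 was also called higher at CLM (adjusted p = 0.00687) and 4h (0.0258), POLD1 was called lower at 30min (0.0209) and CHAF1B at 4h (0.00355). The estimate was nearest 0 at 4h for 41 of the 44 members.

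TNF was followed within each siRNA word. At 30min against CLM no member was called in the Scr1-named libraries, where 0.294% of all genes were, or in the SIK3-named libraries, where 0.15% were. At an unadjusted p under 0.05 these counts were 0 and 2, and DESeq2 and limma voom called 0 in both. Estimates ran from -0.25 (TYMS) to 0.20 (CHAF1A) in Scr1-named and from -0.19 (CDT1) to 0.50 (POLE2) in SIK3-named libraries. No member was called in the difference between these changes either, where 0% of all genes were, with 0 at an unadjusted p under 0.05 and 0 by DESeq2 and voom.

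At 4h against CLM the Scr1-named libraries again gave 0 called members with edgeR, while 8.99% of all genes were called. The count was 4 at an unadjusted p under 0.05 and 0 by DESeq2 and voom, and estimates ran from -0.33 (ORC1) to 0.46 (POLA2) with a median of 0.03. With the replicate block 8 members were called (23.5% of all genes), higher for MCM7, GINS1, RFC2, POLA2, PRIM2, TK1 and CLSPN and lower for GMNN. The blocked estimates were at most 0.45 (POLA2) in size.

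In the SIK3-named libraries 10 members were called higher at 4h than at CLM, against 3.65% of all genes. They were MCM3, MCM4 and MCM7 of the helicase, its activators MCM10 and GINS1, POLE2, the nucleotide genes RRM2, TYMS and TK1, and TIMELESS. The median of the 44 was 0.42, against -0.002 for all genes tested, and 42 of them had an estimate above 0. MCM7, the most abundant licensing member, went from 74.6 and 63.4 CPM in SIK3 CLM to 115 and 108 CPM in SIK3 4h, a rise of 0.69 ± 0.12 (adjusted p = 0.011). RRM2 rose by 0.72 ± 0.11 (adjusted p = 0.00692), MCM10 by 0.78 ± 0.12 (0.00766) and POLE2 by 1.04 ± 0.18 (0.012). With the replicate block 33 members were called higher (12.5% of all genes). With these 4 libraries compared alone and without the block, none was. That smaller run took no account of the replicate number, so it cannot decide how firm the blocked calls are.

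Whether the 4h change differed between the siRNA words was tested as an interaction. It was called for 2 members, both higher, against 0.719% of all genes. For POLE2 the change at 4h was -0.18 ± 0.15 in Scr1-named and 1.04 ± 0.18 in SIK3-named libraries, a difference of 1.22 ± 0.24 (adjusted p = 0.0399). For RRM2 it was -0.12 ± 0.11 and 0.72 ± 0.11, a difference of 0.85 ± 0.16 (adjusted p = 0.0327). The difference was above 0 for 41 of 44 members, and GINS3, POLD3 and RFC2 were the exceptions. Its median was 0.38 for the members and 0.026 for all genes tested. The replicate block gave 19 called members, all higher (6.44% of all genes), among them the 6 hexamer subunits, CDC6 and GMNN. Without the block, comparing the 8 libraries of this test alone left no member called. The SIK3 4h libraries also held the highest shares of reads outside annotated genes, 16.5 and 17.1% against 8.35 to 10.5% in the others. These are shares of all reads, including multimapping ones, which made up 5.42 and 10.2% in SIK3 4h and up to 45.3% in the others. The size of the gap thus depends in part on multimapping, and the part of this in the result was not tested.

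**Figure D4:**
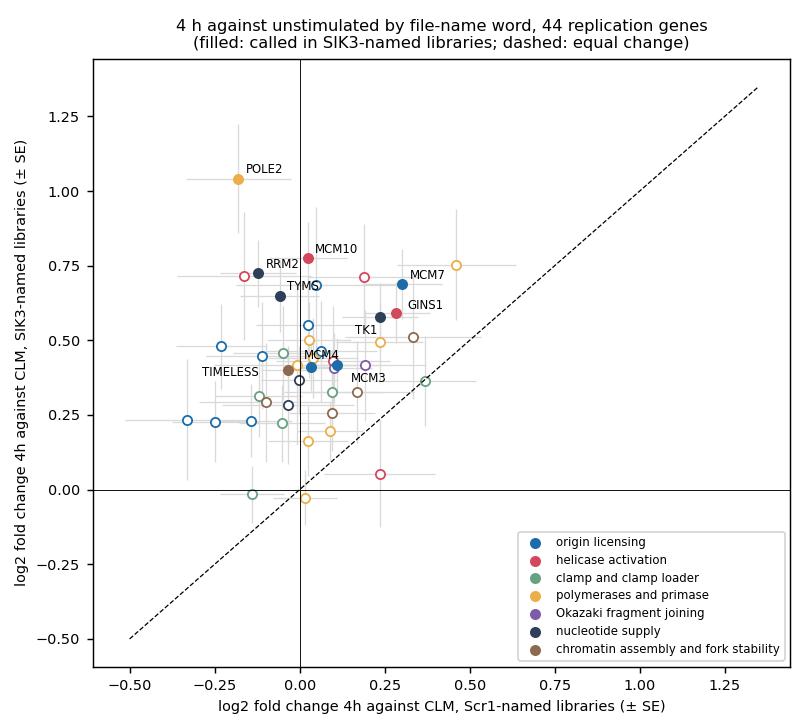
Log2 fold change at 4h against CLM in Scr1-named libraries (x axis) and in SIK3-named libraries (y axis), each ± SE from edgeR, for the 44 replication genes, filled where called in SIK3-named libraries. Points gather near 0 on the x axis (median 0.03) and above 0 on the y axis (median 0.42), and POLE2 at -0.18 and 1.04 is farthest from the dashed line of equal change.

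Other genes of the same pathway were mostly lower too. Of 55 replication genes outside the 44, 40 were called lower and 8 higher in the average over time words, with a median of -0.82, against 29% lower and 30.2% higher of all genes tested in the same comparison. Among 16 further licensing and firing factors 12 were lower and 1 higher, WDHD1, which ties the helicase to polymerase α, changing by -2.29 ± 0.07 and DONSON, which helps to recruit GINS, by 0.58 ± 0.06. Among 17 further fork factors 16 were lower and 1 higher, with topoisomerase TOP2A at -3.53 ± 0.06 the largest fall and POLE4, a small subunit of polymerase ε, higher by 0.48. Of 11 further histone chaperones and maintenance factors 8 were lower and 2 higher.

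Of 11 nucleotide enzymes outside the 44, 4 were called lower and 4 higher, near the shares of all genes (29% and 30.2%). Deoxycytidine kinase (DCK), a salvage enzyme, was at 35.1 to 54.4 CPM in Scr1-named and 7.07 to 11.2 CPM in SIK3-named libraries, a change of -2.25 ± 0.11. CTP synthase CTPS1, which serves RNA as well as DNA synthesis, was at 117 to 165 CPM and 223 to 372 CPM, a rise of 1.08 ± 0.06. DTYMK and RRM2B were among the others called lower, and DCTD, DCTPP1 and TK2 were the others called higher.

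Regulators of the G1 to S step and genes of mitosis were lower too. In a comparison where 29% of all genes were called lower, all 14 G1/S regulators were, with a median of -1.21, the activator E2F1 by 2.10 and cyclin E2 (CCNE2) by 1.72 on the log2 scale, and also the inhibitor CDKN1A by 1.25 and RB1 by 0.70. All 19 mitosis genes were called lower with a median of -2.07, which is further from 0 than the median of the replication genes, and that difference was not tested.

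If the titles are taken for the conditions instead, the replication genes follow other contrasts. The siRNA average by title called 33 members, all lower, with a median of -0.44 (16.7% of all genes called in either direction). By title the siRNA comparison after TNF 30 min sets SIK3 CLM against Scr1 4h and called 42 members (42.5% of all genes) with a median of -1.65. After TNF 4 h it sets SIK3 4h against SIK3 30min and called 10, all higher (7.08%). TNF 4 h in control siRNA sets SIK3 30min against Scr1 CLM and called 42 (37.9%), with a median of -1.54. TNF 30 min in siAS1 sets SIK3 CLM against Scr1 30min and called 43 (40.1%), and TNF 4 h in siAS1 sets SIK3 4h against Scr1 30min and called 38 (41.8%). Which labels are right was not tested beyond the level of SIK3.

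Multimapping differed by replicate number, with ranges that overlapped, and the labels do not give the nature of this difference. Multimapping was 4.94 to 17.6% in replicate 1 and 10.2 to 45.3% in replicate 2. Within replicate 1 alone 43 of 44 members had a lower mean in SIK3-named libraries, with a median log2 difference of -1.47, and within replicate 2 alone 42 did, with a median of -1.47, while 50.1 and 47.8% of all genes were lower.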

How the data were processed

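Total RNA was extracted with RNeasy and DNase I and libraries were made with the ScriptSeq kit, per the labels. The values are counts of reads per gene that the authors deposited, 1 column per library, with STAR 2.05b, edgeR and GRCh38 named in the submitters' processing notes. The annotation release is not given in the sources used here. The 4 summary entries per file were left out of library sizes. Symbols, positions and exon lengths (the union of a gene's annotated exons) came from GENCODE 29 by identifier, and promoters from a RefSeq table (GRCh38.p14).

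Counts were fitted in R 4.3.3 with edgeR 4.0.16 (filterByExpr, minimum count 10, TMM, quasi-likelihood test, 6 residual degrees of freedom) on all 12 libraries, in 10 comparisons, without a block, each adjusted over all 16695 genes. Levels are CPM scaled by TMM, and a library with no read of a gene could hold up to 0.132 to 0.222 CPM (3 counts, counting error only). Members, lists and comparisons were chosen with earlier results of these data known. Named members are, for each role, the most abundant and those with the largest and smallest siRNA change, plus members not called or against the median and up to 4 called at 4h. Others are given as examples chosen after their values were seen. Replicate numbers were checked for pairing: in all 15 pairs of groups the deviations of same-numbered libraries correlated across genes (0.469 to 0.661), so blocked values stand where they change a call. Replicates differed by 17.9 to 36.5 in chi-square per degree of freedom, above counting error.

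On simulated counts the fit recovered 68, 93 and 98% of genes seeded at 1.5, 2 and 4-fold for the siRNA average, with 5.38% of its calls false, 12, 56 and 92% for siRNA at CLM (3.57% false), and 2, 61 and 94% for TNF 4h in Scr1 (9.17% false). The simulation changed 200 genes and gave same-numbered replicates no shared difference, so its rates may not carry over to the data. Alternatives were DESeq2 1.42.0 size factors and test, limma 3.58.1 voom, library totals, other filters, titles, subsets and each library left out. The runs on subsets and with a library left out had no replicate block. Figures were drawn in Python 3.11.15.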

Additional observations from a re-analysis of the deposited data

Results flagged for a closer look

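The change at 4h against CLM differed between siRNA words for 2 members by the interaction test of edgeR. POLE2 changed by 1.22 more on the log2 scale in SIK3-named than in Scr1-named libraries, with levels of 2.17 and 2.04 CPM at CLM against 4.78 and 3.97 CPM at 4h in the former. RRM2 changed by 0.85 more, from 56.2 and 48.6 CPM to 78.9 and 94.4 CPM. With the 8 libraries of the test compared alone, without a replicate block, neither was called. With the block on all libraries both were called (edgeR, adjusted p = 0.00116 for POLE2 and 1.11e-05 for RRM2). They were then among 19 members called higher, where 6.44% of all genes were.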

How the results depend on the processing

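The siRNA average gave 43 called members, 42 of them lower, under every alternative run except the titles, which gave 33 and, with the block, 40, all lower. Of 440 values for named members 435 kept direction and call, and 5 fell short of the threshold when titles gave the conditions: GINS2, DUT, TIPIN and POLD3, and POLD3 again with the block.

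The replicate block gave 8 members for TNF 4h in Scr1, 33 for TNF 4h in SIK3 and 19 for the 4h interaction, and changed no other count by over 1.5 times. The 4h interaction gave 1 member with DESeq2 size factors, 1 with limma voom and 3 with the DESeq2 Wald test. With its libraries alone and no block it gave 0, and TNF 4h in SIK3 also gave 0 in that way. Leaving out 1 library gave 0 to 2 members for TNF 4h in SIK3 and 0 to 0 for the 4h interaction. With conditions from the titles the counts, with the share of all genes called, were 0 for siRNA at CLM (0.294%) and 10 for siRNA at 4h (7.08%, direction reversed). They were 42 for TNF 4h in Scr1 (37.9%) and 43 for TNF 30min in SIK3 (40.1%). For TNF 4h in SIK3 the count was 38 (41.8%, reversed), and for the 30min interaction it was 40 (28.5%). Titles with the replicate block, chosen after seeing the data, gave 0, 27 (reversed), 43, 43, 41 (reversed) and 43 in that order, 8 for TNF 30min in Scr1 and 21 for the 4h interaction. Shares of all genes are not given for titles with the block, so those counts are not read as results about the members. Titles regroup the libraries, which is how the counts by title arise. The cause of the other changes in count was not tested. Scaling by library totals moved the median of all genes to between -0.11 and 0.13, and POLD2 then stood at -0.01 and POLD3 at 0.39. With 2 libraries a group, changes under 2-fold at a single time may be missed. In the simulation 2% of genes seeded at 1.5-fold were recovered for TNF 4h in Scr1. It changed 200 genes, whereas 1501 of 16695 were called in that comparison of the data, so this rate may not carry over.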
